A study of Mus musculus with 6 samples.

Results

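The genes described here encode stress ligands and the receptor complex that recognises them: the ligand genes Raet1d, Raet1e and Ulbp1, the receptor gene Klrk1 and the adaptor gene Hcst. They were taken by gene symbol, and all 5 were found among the 23207 gene symbols of the deposited table. All 5 passed the filter on low counts, which left 19745 genes. They were picked with the comparison of MLKL ASO and control ASO libraries already known, so their levels in that comparison are a description, and no test of them is used as support.

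The libraries hold RNA of endothelial cells from the spleens of 6 Apoe-knockout mice, 1 library per mouse. Mice 1601, 1602 and 1608 received a control antisense oligonucleotide (ASO; such oligonucleotides pair with a chosen RNA and lower it), and mice 1603, 1604 and 1607 an ASO against Mlkl, the executioner of necroptosis. Both groups lack apolipoprotein E, and both had a high cholesterol diet for the 8 weeks of ASO treatment. The sources used here do not give the age of the mice or the way the endothelial cells were isolated.

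NKG2D, the product of Klrk1, is an activating receptor on natural killer (NK) cells, on many CD8 T cells and on some γδ T cells. It has no signalling motif of its own and passes its signal through DAP10, the product of Hcst, which recruits PI 3-kinase and Grb2, and in the mouse also through DAP12, the product of Tyrobp. Its ligands are distant relatives of MHC class I proteins that many healthy cells carry at low levels and that DNA damage, proliferation or infection can raise. In the mouse they are the RAE-1 proteins (Raet1 genes), MULT-1 (Ulbp1) and the H60 proteins. Strains differ in the Raet1 copies they carry, and RAE-1δ and RAE-1ε are the forms known from C57BL/6 mice.

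The start sites of the ligand genes are shown because Raet1d and Raet1e are near-copies of each other, also upstream of the transcript. The windows are the 250 bases before the RefSeq start (build GRCm38.p6), all 5 genes matched the RefSeq table, and Raet1e has 2 starts there, of which the second is printed. The Raet1d window is chr10:22361644-22361893 on the plus strand, the Raet1e window chr10:22173247-22173496 on the plus strand and the Ulbp1 window chr10:7473478-7473727 on the minus strand. Capitals mark a GC box (GGGCGG) or a short form of the E2F motif (TTCCCGC), on either strand.
Raet1d: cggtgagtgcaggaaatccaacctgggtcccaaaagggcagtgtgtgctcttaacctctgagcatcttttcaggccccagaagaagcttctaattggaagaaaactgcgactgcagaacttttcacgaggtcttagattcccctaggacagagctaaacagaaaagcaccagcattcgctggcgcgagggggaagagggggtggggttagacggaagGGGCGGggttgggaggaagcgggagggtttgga
Raet1e: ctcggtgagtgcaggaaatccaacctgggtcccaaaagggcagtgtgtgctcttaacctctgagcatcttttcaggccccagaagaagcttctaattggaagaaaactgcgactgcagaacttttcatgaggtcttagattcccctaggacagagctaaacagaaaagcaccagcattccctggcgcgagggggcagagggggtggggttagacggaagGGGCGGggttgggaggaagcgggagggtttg
Ulbp1: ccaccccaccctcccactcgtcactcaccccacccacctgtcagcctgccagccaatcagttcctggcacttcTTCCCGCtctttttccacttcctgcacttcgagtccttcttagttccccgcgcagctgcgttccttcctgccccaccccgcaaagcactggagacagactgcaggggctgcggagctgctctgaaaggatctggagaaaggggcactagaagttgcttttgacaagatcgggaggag
Over 298 bases that the Raet1d and Raet1e windows share when the 50 bases after the start are included, 295 were identical (99%). Counted from 1 at the 5′ end of the printed Raet1d window, the 3 differences from Raet1d to Raet1e were C126T, G178C and A193C. The first start of Raet1e was no such copy, with 28.1% of bases identical to the Raet1d window at the best ungapped offset, and Ulbp1 had 31.9%. The GC box stood at position -33 from the start in Raet1d and at -31 in Raet1e. It is found in 32.7% of all 32851 promoter windows of this length. The short E2F form stood at -177 in Ulbp1 and in none of the other member windows, against 3.82% of all windows. The longer E2F letters TTTNNCGC, which can overlap the short form, and the AP-1 motif TGANTCA were searched on both strands and matched none of the 5 genes' windows, against 4.28% and 6.75% of all windows. A CCAAT box (CCAAT) stood at -158 in Raet1d, -156 in Raet1e, -198 in Ulbp1 and -35 in Klrk1, against 33.8% of all windows. The TATA box TATAAA and the cAMP response element TGACGTCA matched none of the members, against 12.4% and 1.55% of all windows. These matches are letters in a window and show no binding.

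Raet1d had the widest separation between groups among the 5 genes. It measured 1.21, 1.13 and 1.39 CPM (counts scaled to a common library total with TMM factors) in control mice 1601, 1602 and 1608, whereas mice 1603, 1604 and 1607, given the MLKL ASO, had 6.43, 5.48 and 6.88 CPM. The control libraries lay close together and the lowest MLKL ASO library was far above the highest of them. The means were 1.25 ± 0.131 CPM and 6.26 ± 0.714 CPM (SD, n = 3 per group), a 5.03-fold higher level with the MLKL ASO. On the log2 scale the fitted difference was 2.33 with a standard error of 0.23, and leaving out any 1 mouse kept it between 2.25 and 2.41. In the authors' deposited table the log2 fold change of Raet1d is 2.40 with a standard error of 0.25. The counts behind these values are small, at 94.0 to 98.0 estimated counts in control libraries and 363 to 609 in MLKL ASO libraries.

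Raet1e, which encodes RAE-1ε, was also higher in each MLKL ASO library than in each control library, by a narrower margin. Its level was 1.40, 2.44 and 1.12 CPM in control mice 1601, 1602 and 1608, against 3.44, 2.72 and 2.76 CPM in mice 1603, 1604 and 1607. The gap between the groups lay between control mouse 1602 and MLKL ASO mouse 1604. The means were 1.65 ± 0.694 and 2.97 ± 0.408 CPM (SD, n = 3 per group), a 1.80-fold higher level with a log2 difference of 0.84 and a standard error of 0.35. Without mouse 1602 the log2 difference was 1.23, and without mouse 1608 it was 0.63.

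**Figure D1:**
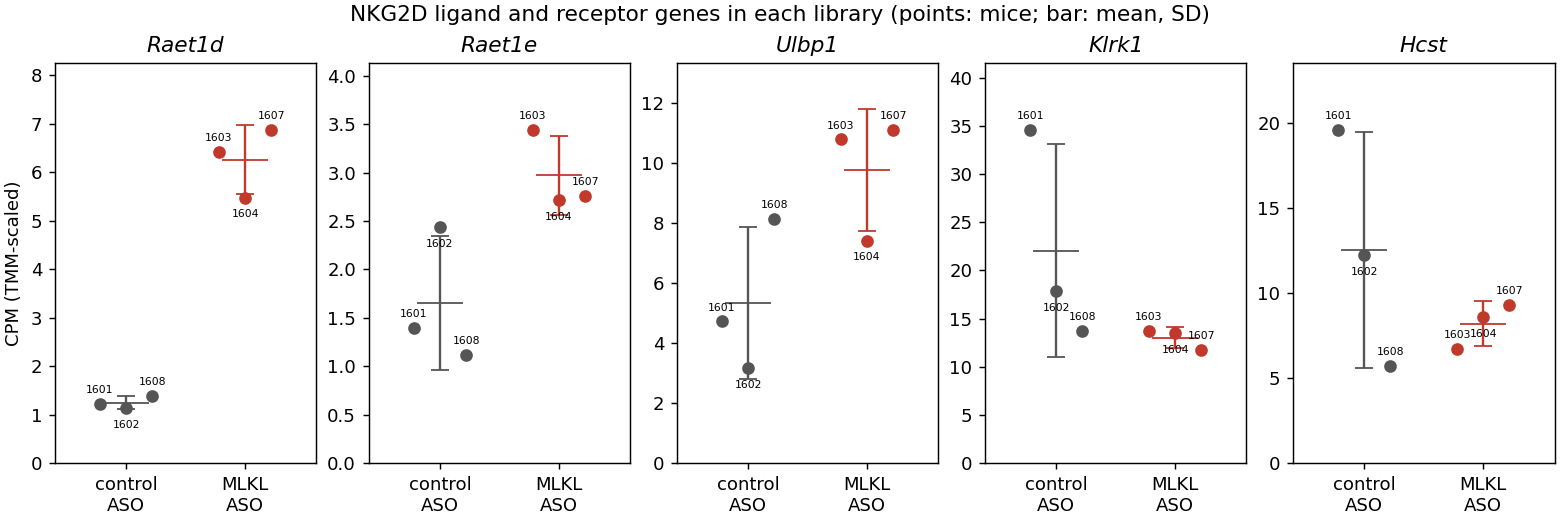
CPM of the 5 genes in each library, with points for mice (numbers beside them), a bar for the group mean and whiskers for the SD over 3 mice, on axes that start at 0. The groups do not overlap for Raet1d and Raet1e, and overlap for Ulbp1, Klrk1 and Hcst.

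Reads from the Raet1 copies are hard to tell apart, so the rows were also summed. In the GENCODE vM21 transcripts (GRCm38), used here only to measure likeness since the authors' annotation is not given, 945 of the 1409 distinct 31-base stretches of Raet1d transcripts also occur in Raet1e, or 67.1%. These are 49.7% of the stretches of Raet1e, which also shares 103 with H60b. The remaining 464 stretches of Raet1d occur in no other gene. The table holds 2 rows whose symbol starts with Raet1, and their sum measured 2.57, 3.60 and 2.54 CPM in control mice 1601, 1602 and 1608 and 9.83, 8.18 and 9.61 CPM in mice 1603, 1604 and 1607. Every MLKL ASO library was thus above every control library for the sum too. The means were 2.90 ± 0.607 and 9.21 ± 0.895 CPM (SD, n = 3 per group), 3.17-fold apart, with a log2 difference of 1.66 and a standard error of 0.23. The sum does not depend on how reads were divided between these 2 rows.

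The division between the copies differed between the groups as well. Of the estimated Raet1 counts, Raet1d took 46.6%, 31.8% and 55.4% in control mice 1601, 1602 and 1608, and 65.2%, 66.8% and 71.4% in mice 1603, 1604 and 1607. The shares did not overlap, and the control shares were spread more widely. How far the authors' assignment of shared reads moves these shares was not tested.

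**Figure D2:**
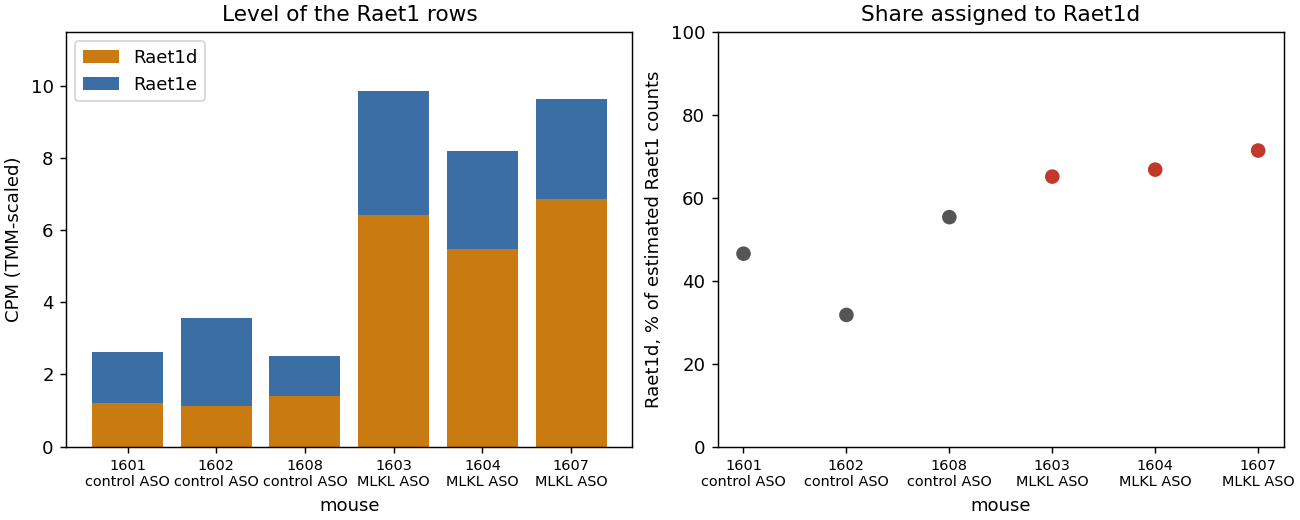
Left, CPM of Raet1d and Raet1e stacked for each mouse, with an axis from 0; right, the percentage of the estimated Raet1 counts assigned to Raet1d in the same mice. The stacked level is 2.54 to 3.60 CPM in control mice and 8.18 to 9.83 CPM with the MLKL ASO, and the Raet1d share is 31.8% to 55.4% and 65.2% to 71.4%.

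Ulbp1, which encodes the high-affinity ligand MULT-1, was higher on average with the MLKL ASO but overlapped between the groups. It measured 4.72, 3.17 and 8.13 CPM in control mice 1601, 1602 and 1608, and 10.8, 7.41 and 11.1 CPM in mice 1603, 1604 and 1607. Control mouse 1608 lay above MLKL ASO mouse 1604, and the other 2 control mice lay below all MLKL ASO mice. The means were 5.34 ± 2.54 and 9.77 ± 2.04 CPM (SD, n = 3 per group), with a log2 difference of 0.87 and a standard error of 0.36. Without mouse 1608 the difference was 1.31, and without mouse 1602 it was 0.60. The authors' deposited table gives 1.12 for Ulbp1, with a standard error of 0.35. Of the 31-base stretches of Ulbp1 transcripts, 3.73% occur in other genes.

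H60b was the remaining ligand gene with a row in the table, and the ligand symbols Raet1a, Raet1b, Raet1c, H60a and H60c were not analysed here. H60b measured 0.583, 0.326 and 0.582 CPM in control mice 1601, 1602 and 1608, and 0.991, 0.634 and 0.587 CPM in mice 1603, 1604 and 1607. The groups stood apart by less than the value of 1 read, from 27.0 to 61.0 estimated counts a library. Its log2 difference was 0.57 (standard error 0.43, edgeR adjusted p = 0.641 over all genes tested).

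Klrk1, the receptor chain, was lower on average with the MLKL ASO, with overlap between the groups. Its levels were 34.6, 17.9 and 13.7 CPM in control mice 1601, 1602 and 1608, and 13.7, 13.5 and 11.8 CPM in mice 1603, 1604 and 1607. The 3 MLKL ASO libraries lay close together, control mouse 1608 lay among them, and control mouse 1601 stood highest. The means were 22.1 ± 11.1 and 13.0 ± 1.08 CPM (SD, n = 3 per group), with a log2 difference of -0.76 and a standard error of 0.33. That difference was -0.30 without mouse 1601.

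Hcst, the DAP10 adaptor, followed a like order in the control mice and overlapped more widely. It measured 19.6, 12.2 and 5.72 CPM in control mice 1601, 1602 and 1608, and 6.74, 8.59 and 9.29 CPM in mice 1603, 1604 and 1607. Control mouse 1608 held the lowest level of all libraries and control mouse 1601 the highest. The means were 12.5 ± 6.95 and 8.20 ± 1.32 CPM (SD, n = 3 per group), with a log2 difference of -0.61 and a standard error of 0.41. Without mouse 1601 it was -0.15, and without mouse 1608 it was -0.95. In the RefSeq annotation of GRCm38.p6, Hcst lies beside Tyrobp, the gene of the DAP12 adaptor, which is also expressed widely in myeloid cells. Tyrobp measured 186, 80.6 and 62.4 CPM in control mice 1601, 1602 and 1608 and 81.3, 93.5 and 88.2 CPM in mice 1603, 1604 and 1607, a log2 difference of -0.33 (standard error 0.38, edgeR adjusted p = 0.774).

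Ranked by CPM per kilobase of the median protein-coding transcript in GENCODE vM21, the receptor complex stood above its ligands in both groups. In control mice the order of mean levels per kilobase was Hcst (31), Klrk1 (17.4), Ulbp1 (1.40), Raet1e (1.33), Raet1d (0.925) and H60b (0.471). Hcst and Klrk1 overlapped over the control mice, as did Ulbp1, Raet1e and Raet1d. In MLKL ASO mice the order was Hcst (20.3), Klrk1 (10.2), Raet1d (4.65), Ulbp1 (2.56), Raet1e (2.39) and H60b (0.699). Here Raet1d, at 4.07 to 5.10 per kilobase, lay above Ulbp1 at 1.94 to 2.91, and Ulbp1 overlapped Raet1e at 2.18 to 2.76. The lengths of annotated Ulbp1 transcripts run from 383 to 5959 bases, so its level per kilobase depends on the transcript used.

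Across all genes, edgeR's quasi-likelihood test with Benjamini-Hochberg adjustment called 0 of the 5 members, where it called 0.00506% of the 19745 genes tested as higher and 0.00506% as lower. At an unadjusted p under 0.05 there were 3 members higher, beside 4.89% of all genes. DESeq2 called 1 member, Raet1d, as higher, where it called 1.14% of genes as higher and 1.48% as lower. Limma-voom with sample weights also called 1, again Raet1d, beside 0.0456% of genes as higher and 0.0658% as lower. The authors' deposited table has the same 1 member past the threshold, beside 0.872% of its tested rows as higher and 0.934% as lower. Groups did not overlap, with higher levels in MLKL ASO mice, for 2 of the 5 members and for 9.02% of all genes. As the members were chosen on this contrast, nothing is read from these counts. Mlkl, the target, stood at 33.3 ± 4.09 CPM with the control ASO and 5.70 ± 1.90 CPM with the MLKL ASO (SD, n = 3 per group). Its groups did not overlap, and 9.71% of all genes were lower without overlap. Even Mlkl was not called by edgeR (adjusted p = 0.0655), so a count of 0 called by edgeR does not show that levels were unchanged. The labels call the MLKL ASO group a knockdown and do not name the cells the ASO reached.

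The pathway around the receptor was described with lists of genes outside the 5 members. Of 78 such genes in the table, 76 passed the filter on low counts, and edgeR called 0 as higher and 0 as lower after adjustment over all genes (smallest adjusted p = 0.211). At an unadjusted p under 0.05 there were 1 higher and 23 lower, or in all genes tested 4.89% higher and 6.96% lower. Their log2 fold changes had a median of -0.32 with 54 below 0, beside a median of -0.0092 over all genes tested. The lists behind this median differed. It was -0.81 for other NK receptors (20 tested, 18 below 0) and -0.85 for cytotoxic effectors (11 tested, 11 below 0). For downstream signalling it was -0.29, for ligand regulators 0.075 and for ligand shedding -0.024. DESeq2 called 2 of them lower, Zap70 (adjusted p = 0.000120) and Ncr1 (adjusted p = 0.0426), and limma-voom 0.

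Among 18 genes of signalling below DAP10 and DAP12, 12 lay below 0, with a median of -0.29, and edgeR called 0. At an unadjusted p under 0.05 there were 3 lower, beside 6.96% of all genes. Zap70, a kinase of T and NK cells that docks on phosphorylated receptor motifs, measured 20.9 ± 7.25 CPM with the control ASO and 7.75 ± 0.896 CPM with the MLKL ASO (SD, n = 3 per group; edgeR adjusted p = 0.211). Lck, a Src family kinase of T cells, measured 108 ± 45 and 57.6 ± 2.99 CPM (edgeR adjusted p = 0.349), and Pik3cd, the leukocyte PI 3-kinase subunit p110δ, 26.5 ± 11.7 and 15.3 ± 0.90 CPM (edgeR adjusted p = 0.380). Groups did not overlap for these 3 of the 18 genes, all lower in MLKL ASO mice, and 9.71% of all genes have that pattern. The genes are named for having the smallest p of the list, so their lack of overlap is no separate result. Rac2, a GTPase of blood cells, overlapped at 308 ± 146 and 206 ± 25.2 CPM.

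Genes described as regulators of ligand levels lay on both sides of 0, with 10 above and 8 below among 18 tested and a median of 0.075. Here edgeR called 0, with an unadjusted p under 0.05 for 1 higher and 2 lower genes, beside 4.89% and 6.96% of all genes. E2f3, a cell cycle transcription factor, measured 5.59 ± 0.957 CPM with the control ASO and 8.19 ± 0.559 CPM with the MLKL ASO (edgeR adjusted p = 0.383). Irf3, the interferon regulatory factor downstream of STING, measured 116 ± 4.42 and 94.2 ± 2.93 CPM (edgeR adjusted p = 0.365), and the transcription factor gene Myc 165 ± 20.1 and 128 ± 8.58 CPM (edgeR adjusted p = 0.372). Hsf1, the heat shock factor, measured 72.2 ± 8.85 and 60.2 ± 3.51 CPM (edgeR adjusted p = 0.464). Groups did not overlap for these 4 genes and 3 others of the list, 3 higher and 4 lower in all, beside 9.02% of all genes higher and 9.71% lower. Genes of ligand shedding had 3 of 7 above 0 and a median of -0.024, and overlapped between the groups for all 7, with 0 called by edgeR and 0 at an unadjusted p under 0.05. Of these, the protease gene Adam10 measured 221 ± 24.0 and 237 ± 19.7 CPM, Adam9 54.2 ± 25.1 and 71.1 ± 8.89 CPM, Mmp14 56.0 ± 12.7 and 49.0 ± 2.78 CPM, and Mmp9 8.25 ± 6.44 and 5.25 ± 2.43 CPM.

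Cell cycle genes were listed because proliferation is a known setting of Raet1 expression. All 12 lay above 0, with a median of 0.82, and edgeR called 0 (smallest adjusted p = 0.313). At an unadjusted p under 0.05 there were 7 higher, beside 4.89% of all genes. Mki67, found in the nuclei of cycling cells, stood at 98.1 ± 40.4 CPM with the control ASO and 208 ± 52.0 CPM with the MLKL ASO. Ccne2, cyclin E2, measured 21.1 ± 8.38 and 45.8 ± 8.28 CPM, Cenpf 26.7 ± 9.11 and 54.2 ± 10.02 CPM and Tpx2 38.1 ± 12.5 and 74.0 ± 9.60 CPM. Summed over the list, control mouse 1601 at 1246 CPM lay above MLKL ASO mouse 1607 at 1124 CPM, so the groups overlapped for the sum. Erythroid markers lay above 0 beside this list, 9 of 9, with a median of 0.80, and edgeR called 0 (2 with unadjusted p under 0.05). Their sums were highest in mice 1604, 1601 and 1603 and lowest in mice 1602 and 1608, as were the cell cycle sums. The part of erythroid cells in the cell cycle levels, and of either in the ligand levels, was not tested.

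**Figure D3:**
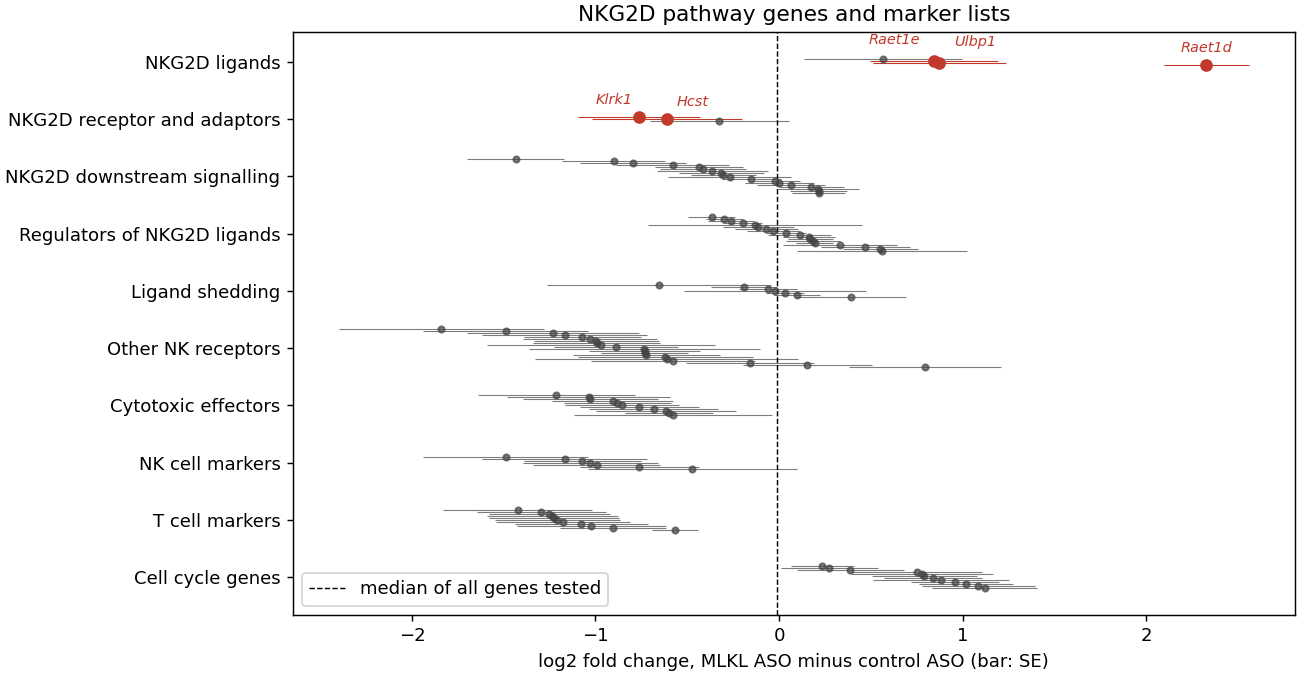
Log2 fold change (MLKL ASO minus control ASO, all 6 mice) of each tested gene by list, with its standard error as a bar, the 5 members in red and a dashed line at the median of all genes tested. The 4 ligand genes lie above 0, Klrk1 and Hcst below 0, and most genes of NK receptors, cytotoxic effectors and NK and T cell markers below 0.

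Other receptors of NK cells were mostly lower with Klrk1, with 18 of 20 tested below 0 and a median of -0.81. Of these, edgeR called 0, with 11 lower at an unadjusted p under 0.05, beside 6.96% of all genes. Ncr1, the NK receptor NKp46, measured 6.35 ± 3.67 CPM with the control ASO and 2.26 ± 0.749 CPM with the MLKL ASO (edgeR adjusted p = 0.342). Klrb1c, the NK1.1 antigen, measured 11.1 ± 3.24 and 5.28 ± 1.61 CPM (edgeR adjusted p = 0.342). Klrc1, the NKG2A receptor whose gene lies in the same cluster as Klrk1, measured 9.42 ± 2.59 and 5.67 ± 0.430 CPM (edgeR adjusted p = 0.357). Klra4, a receptor of the Ly49 multigene family, whose sharing of reads was not tested here, measured 1.52 ± 0.966 and 0.425 ± 0.00392 CPM. The Klra4 counts were small, down to 26 estimated counts in a library, so its small SD is no measure of precision. The effector genes of the same cells had 11 of 11 below 0, with a median of -0.85 and 0 called by edgeR. Of them, 7 were lower at an unadjusted p under 0.05, beside 6.96% of all genes. Perforin (Prf1) measured 10.01 ± 4.38 and 4.91 ± 1.59 CPM, granzyme B (Gzmb) 7.24 ± 2.23 and 3.93 ± 0.730 CPM, Ifng 8.32 ± 4.53 and 3.59 ± 0.724 CPM, and Fasl 8.61 ± 3.13 and 4.76 ± 0.905 CPM.

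Markers of NK cells and of T cells in general had lower levels in the MLKL ASO libraries, with 0 called by edgeR. At an unadjusted p under 0.05, 5 of the NK and 11 of the T cell markers were lower, beside 6.96% of all genes. The NK list is not separate from the lists above. Ncr1, Klrb1c, Klre1 and Klri2 are also among the other NK receptors, and Prf1 and Gzma among the effector genes. The T cell list holds mostly genes of T cells in general and includes Cd4, so it does not single out T cells that carry NKG2D. All 8 NK cell markers have rows, 1 of them (Khdc1a) is at 0 in some libraries, and the 7 tested lay below 0 with a median of -1.03. Summed, they measured 81.5, 53.2 and 38.6 CPM in control mice 1601, 1602 and 1608 and 21.8, 35.9 and 30.8 CPM in mice 1603, 1604 and 1607. The 11 T cell markers, all detected in each library, lay below 0 with a median of -1.21. Groups did not overlap for any of them, and 9.71% of all genes were lower without overlap. Their sum was 562, 305 and 226 CPM in control mice 1601, 1602 and 1608 and 143, 177 and 166 CPM in mice 1603, 1604 and 1607. In both lists mouse 1601 stood highest, as it did for Klrk1 and Hcst. The same mouse also had the highest summed B cell (2115 CPM), macrophage (858 CPM) and dendritic cell markers (641 CPM) of the 6 and the lowest summed endothelial markers (1902 CPM). Ccr7 alone made up 481 of the 641 CPM. Without Ccr7, control mouse 1608 would have the highest dendritic cell sum, with Zbtb46 at 158 CPM against 93.0 CPM in mouse 1601. In bulk RNA, fewer cells of a type and less RNA per cell cannot be told apart.

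Relative to those markers, which do not measure the cells that carry NKG2D alone, Klrk1 was not lower with the MLKL ASO. Klrk1 per unit of summed T cell marker CPM was 0.0616, 0.0585 and 0.0607 in control mice 1601, 1602 and 1608. In mice 1603, 1604 and 1607 it was 0.0962, 0.0763 and 0.0709, higher without overlap. Per unit of summed NK cell marker CPM it was 0.425, 0.336 and 0.355 and 0.630, 0.377 and 0.382, with overlap. Both sums were themselves lower in the MLKL ASO mice without overlap, so a gene that fell less than they did tends to higher ratios. How many other genes have such ratios was not tested, so the ratios show nothing particular to Klrk1. When the mean level of NK and T cell markers entered edgeR as a covariate, the log2 difference was 0.28 for Klrk1 (standard error 0.32). For Hcst it was 0.79 (standard error 0.37). Without the covariate these values were -0.76 and -0.61. In the covariate fit the log2 difference was 2.17 for Raet1d (standard error 0.38), 0.73 for Raet1e (0.63) and 0.33 for Ulbp1 (0.52). The values of Klrk1 and Ulbp1 in that fit were smaller than their standard errors. The covariate itself differs between the groups, so the ASO and the marker level are only partly separable in 6 mice.

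**Figure D4:**
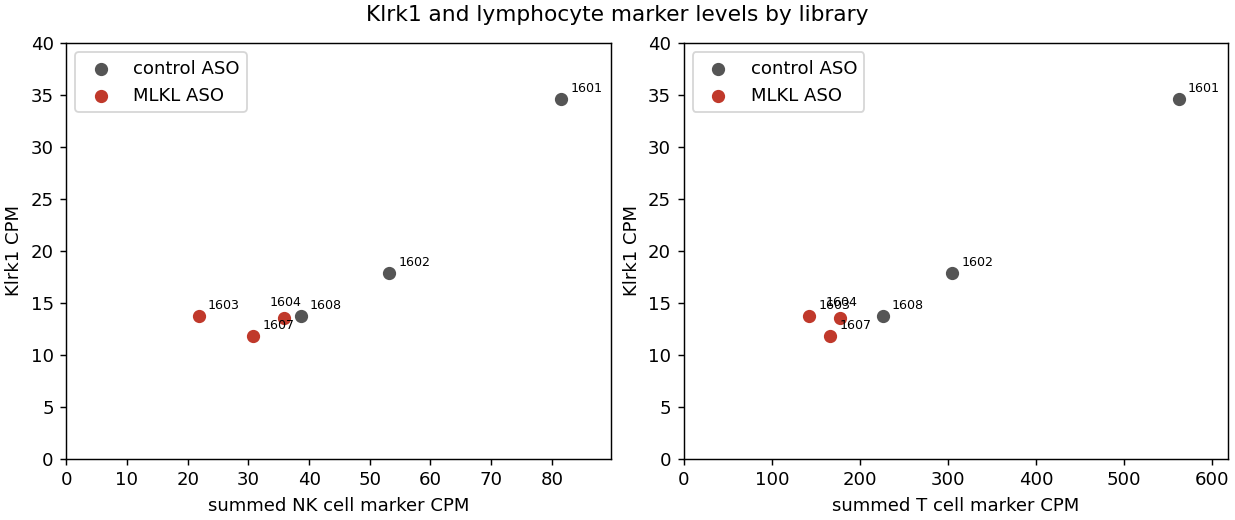
Klrk1 CPM against the summed CPM of 8 NK cell markers (left) and 11 T cell markers (right), 1 point per mouse, all axes from 0. Mouse 1601 is highest on every axis, and the MLKL ASO mice have Klrk1 levels near that of control mouse 1608 at lower marker sums.

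Markers of endothelium, the labelled cell type, were present in all libraries. The 9 genes summed to 1902 to 3317 CPM over control mice and 2350 to 2600 CPM over MLKL ASO mice, so the groups overlapped, and 0 of them were at 0 in any library. RNA of other spleen cells was present too. Summed erythroid markers ran from 26060 to 75576 CPM over control mice and 40022 to 90771 CPM over MLKL ASO mice, neutrophil markers from 242 to 1881 and 732 to 2026 CPM, macrophage markers from 330 to 858 and 409 to 641 CPM, B cell markers from 922 to 2115 and 673 to 1084 CPM, dendritic cell markers from 403 to 641 and 290 to 357 CPM, and the 3 of 6 γδ T cell markers with a row from 12.5 to 13.0 and 6.22 to 12.1 CPM. By gene, erythroid (9 of 9, median 0.80) and neutrophil markers (8 of 8, median 0.45) lay above 0, B cell markers below 0 (7 of 7, median -0.61), as did 6 of 7 dendritic cell markers (median -0.53), while macrophage markers had 4 of 9 above 0 (median -0.025). The 3 γδ T cell markers lay below 0 (median -1.03), and endothelial markers had 3 above and 6 below 0 (median -0.11). edgeR called 0 of the markers in these lists. With unadjusted p under 0.05 there were 2 erythroid markers and 1 endothelial marker higher, beside 4.89% of all genes. There were 2 B cell, 2 dendritic cell and 1 γδ T cell marker lower, beside 6.96% of all genes. The erythroid sum is made up mostly of the globin genes Hbb-bs and Hba-a1. Of the summed levels here, those of dendritic cell and γδ T cell markers did not overlap between the groups. The NK and T cell sums given above did not overlap either. Ccr7 was the largest part of the dendritic cell sum (mean 322 CPM with the control ASO, 171 CPM with the MLKL ASO). Without Ccr7 that sum would overlap between the groups. Ccr7 and Flt3 were without overlap, while the other genes of that list overlapped, among them Zbtb46 (115 and 108 CPM). On average Sox13 was the largest part of the γδ T cell sum and overlapped (8.09 and 7.17 CPM), whereas Trdc did not. Which cells held the Raet1 and Ulbp1 RNA was not tested.

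The fold changes kept their sign when any mouse was left out. In these runs of 5 mice, Raet1d stayed between 2.25 and 2.41, the Raet1 sum between 1.58 and 1.85, Raet1e between 0.63 and 1.23 and Ulbp1 between 0.60 and 1.31. Klrk1 ranged from -1.01 to -0.30 and Hcst from -0.95 to -0.15, both nearest to 0 without mouse 1601.

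**Figure D5:**
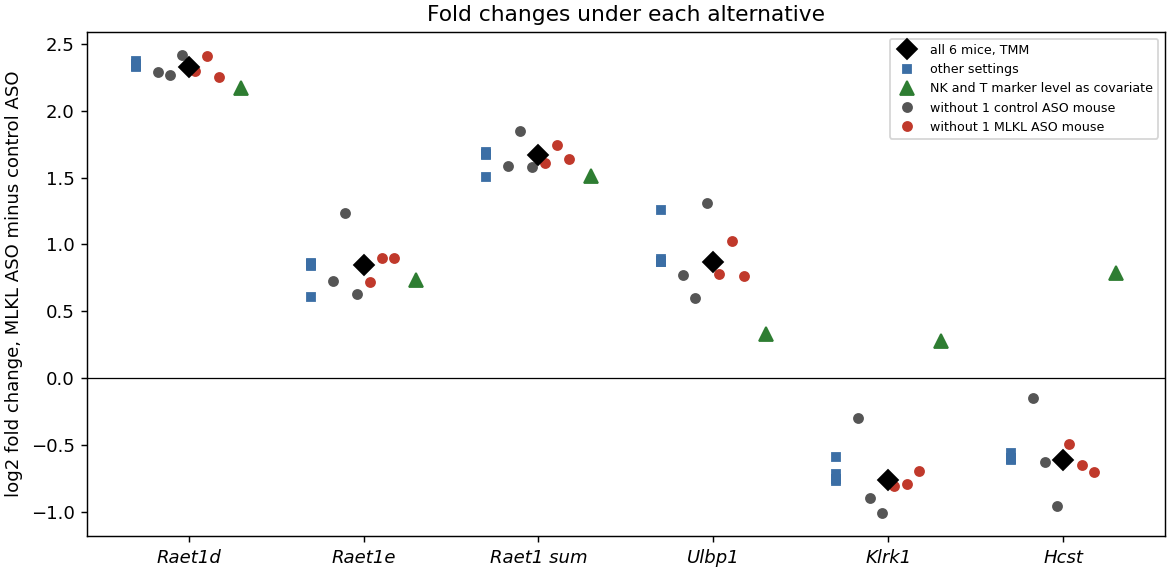
Log2 fold change (MLKL ASO minus control ASO) of the 5 genes and of the Raet1 sum with all 6 mice (diamonds), without 1 mouse (circles, coloured by the group of the mouse left out), with the NK and T cell marker level as covariate (triangles) and under other normalisations, filters and tools (squares). Raet1d lies between 2.17 and 2.41 in all of them. The triangles of Klrk1 and Hcst lie above 0, that of Klrk1 by less than its standard error.

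Genes with the most similar profile over the 6 libraries were found by Pearson correlation of log2 CPM among genes with a mean of at least 1 CPM, as a description. For Raet1d these were Ces2e (r = 0.9995), Lypd5 (r = 0.997) and Uchl5 (r = 0.995). For Raet1e they were Bex3 (r = 0.989), Coa4 (r = 0.986) and C1d (r = 0.984), and for Ulbp1 Hivep3 (r = 0.994), Bclaf1 (r = 0.989) and Ubr7 (r = 0.988). Klrk1 was closest to Icosl (r = 0.998), Osgin2 (r = 0.995) and Gm15501 (r = 0.993), and Hcst to Arhgap25 (r = 0.998), Pim1 (r = 0.995) and Wfdc1 (r = 0.991). The Raet1 sum was closest to Gm13056 (r = 0.991), Rxylt1 (r = 0.990) and Ddx1 (r = 0.988). With 6 points that share the split into groups, a high value does not single out a gene. Between 36 and 111 of the 14468 genes compared passed 0.95 for each single member. Ces2e, a carboxylesterase, went from 7.39 to 40.6 CPM between the group means, so its profile has both the direction and about the size of that of Raet1d. The other 2 differ in size, as correlation ignores it: Lypd5 went from a mean of 0 CPM in control mice to 3.10 CPM, and Uchl5 from 67.5 to 76.8 CPM.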

How the data were processed

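Per the submitters' processing notes, the authors used fastp 0.20.1, Salmon 1.3.0 and DESeq2; the sources used here name no genome build or annotation. Per the labels' protocols, libraries came from a directional mRNA kit. The deposited table holds estimated counts per gene symbol (69.3% of values are not whole), as Salmon gives when it divides reads between similar transcripts. The authors also deposited a DESeq2 table that holds, per the file headers, a mean normalised count (a signal), a log2 fold change, its standard error, a Wald score and p-values. Positive values there mean higher in MLKL ASO, as its log2 fold changes correlate at r = 0.977 with those computed here over 19728 genes.

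Estimated counts were rounded and fitted with edgeR 4.0.16 in R 4.3.3 (default expression filter, TMM, two-sided quasi-likelihood test, Benjamini-Hochberg adjustment over 19745 genes, threshold 0.05), and the procedure was tested on simulated data. Standard errors were derived from the log2 fold change and its F value. The Raet1 sum was fitted with its rows replaced by 1 row. Alternatives used limma 3.58.1 and DESeq2 1.42.0. Library totals ran from 59988846 to 87776706 estimated counts. Members and gene lists were chosen with earlier results of these data known. Named are the 5 members, Mlkl, Tyrobp, the other ligand gene, from each pathway list up to 4 genes of smallest p, and the 3 most similar genes per member. Some genes of the marker lists are also named, outside this rule, to describe those lists. Mouse numbers do not recur between groups, so no block was fitted.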

Additional observations from a re-analysis of the deposited data

How the results depend on the processing

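No paired analysis was possible because mouse numbers do not recur between the groups. Over the alternative fits, 74 of 78 log2 fold changes of the 5 members and the Raet1 sum stayed within 1 within-group SD of their main values. That SD is wide for Klrk1 (0.49) and Hcst (0.66), so their values of -0.30 and -0.15 without mouse 1601 count as within it. The other 4 of the 78 came from the fit with NK and T cell marker level as covariate. They were 2.17 for Raet1d and 0.33 for Ulbp1, and a turned direction for Klrk1 (0.28) and Hcst (0.79). Standard errors in that fit were 0.38 for Raet1d, 0.52 for Ulbp1, 0.32 for Klrk1 and 0.37 for Hcst. The values of Ulbp1 and Klrk1 were thus smaller than their standard errors. Counts of genes past the threshold, 1 higher and 1 lower in edgeR, were 5 and 4 with library totals alone, 224 and 291 with DESeq2, 9 and 13 with limma-voom, 6 higher with the covariate, and 0 to 10 higher and 0 to 9 lower when a mouse was left out (0 without mouse 1602, 1603, 1604 or 1607; 10 higher and 9 lower without mouse 1608; 3 lower without mouse 1601). Of other pathway genes, 2 were lower by DESeq2, against 0 in edgeR. Why the tools differ was not tested. Raet1d, with 94.0 to 609 estimated counts a library, had a standard error of 0.23 on the log2 scale, and Hcst, with 403 to 1582, had 0.41.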
